A study of Drosophila melanogaster with 3 samples.

Results

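The genes described here are 8 Drosophila melanogaster genes that encode transcription factors with a BTB domain, namely lola, ttk, fru, ab, psq, bab1, bab2 and rib, out of 13968 protein-coding genes tested. They were listed by symbol, and a binding region was assigned to a gene where its summit lay in the gene or within 1 kb of it. By this rule they held 32 of the 5246 peaks of the authors' optimal list, which is 0.61% of that list, and 167 of the 30000 regions of the pooled list. The data are chromatin immunoprecipitation followed by sequencing (ChIP-seq) of the CG7368 protein in whole prepupae, the stage that follows the end of larval life. All animals came from a transgenic line that stably expressed CG7368 with green fluorescent protein (GFP) at its C-terminal end, males and females were pooled, and an antibody against GFP was used. The series has 1 group of 3 biological replicates and no second condition, so the results below compare places within genes, genes and replicates. The labels name a control experiment, which is not analysed here, and chromatin of whole animals mixes all tissues, so a site used in a few cells and a site used weakly in many cannot be told apart.

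BTB domains let these proteins form dimers and larger complexes, while a separate DNA-binding part selects the sites. Tramtrack (ttk), Longitudinals lacking (lola), Fruitless (fru) and Abrupt (ab) bind DNA through zinc fingers, whereas Pipsqueak (psq), Bric-a-brac (bab1, bab2) and Ribbon (rib) carry a DNA-binding domain of the Pipsqueak type, so the name BTB zinc finger factor covers only some of the group. The genes are long and several make many isoforms from separate starts, which in lola, ttk and fru share a BTB exon and differ in their zinc fingers. They are known for cell fate choice and axon guidance in the nervous system, for eye, limb and tracheal development, and for the growth and turnover of tissues during metamorphosis.

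To show what DNA lay under the summits, the base at the summit of the highest optimal peak and 50 bases on each side are printed for the members on arms 2L, 3L and 3R that had one. They are given 5′ to 3′ on the plus strand of dm6, read from the RefSeq genome of that assembly, and capitals mark a match, on either strand, to one of 6 short words that were searched.
ttk chr3R:31717407-31717507: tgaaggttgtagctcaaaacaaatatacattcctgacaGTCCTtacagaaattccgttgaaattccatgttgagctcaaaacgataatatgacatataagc
ab chr2L:11219870-11219970: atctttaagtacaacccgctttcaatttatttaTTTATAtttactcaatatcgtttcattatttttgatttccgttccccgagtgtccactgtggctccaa
fru chr3R:18436771-18436871: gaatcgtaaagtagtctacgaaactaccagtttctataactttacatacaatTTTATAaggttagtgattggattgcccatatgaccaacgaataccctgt
bab1 chr3L:1089446-1089546: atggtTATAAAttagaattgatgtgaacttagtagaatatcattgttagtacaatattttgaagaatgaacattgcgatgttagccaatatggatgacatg
bab2 chr3L:1139555-1139655: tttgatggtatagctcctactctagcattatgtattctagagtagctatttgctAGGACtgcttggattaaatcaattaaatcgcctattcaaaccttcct
The capitals in ttk and bab2 are the word AGGAC, read on the minus strand in ttk, the core of the site known for a Tramtrack isoform. Those in bab1, fru and ab are TATAAA, read on the minus strand in fru and ab. These 5 windows each held a single match. The A+T share within 25 bp of the summit was 82.4% in ab, 74.5% in bab1, 72.5% in fru, 66.7% in bab2 and 60.8% in ttk.

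Optimal peaks are the regions that the authors retained by the irreproducible discovery rate (IDR) procedure, which uses the agreement of ranks between replicates to set a limit on the list. In the 8 genes retention followed the pooled rank, as each region down to rank 5066 was kept and none from rank 5359 on, so a retained peak can still differ in rank between replicates. Of the 8 genes, 7 held at least 1 optimal summit and rib held none, where 24.3% of all protein-coding genes and 55.8% of those of 10 kb or more held one. All 8 members are longer than 10 kb, and most lie between 20 and 100 kb. The share with an optimal summit was 60.3% among genes of 20 to 50 kb and 65.9% among those of 50 to 100 kb. psq held 12 optimal summits, fru 7, lola and bab1 4 each, bab2 and ab 2 each, and ttk 1. Of the pooled regions in the 8 genes, 19.2% were optimal peaks, close to the 17.5% of the whole pooled list. The retained regions were 4 of 8 in lola and 2 of 10 in bab2, and the share was 32.4% in psq (12 of 37), 15.6% in fru (7 of 45) and 13.8% in bab1 (4 of 29). It was 8.7% in ab (2 of 23) and 7.69% in ttk (1 of 13), and neither pooled region of rib was retained. lola thus had few regions of which many were retained, while fru and bab1 had many regions at the lower ranks.

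**Figure D1:**
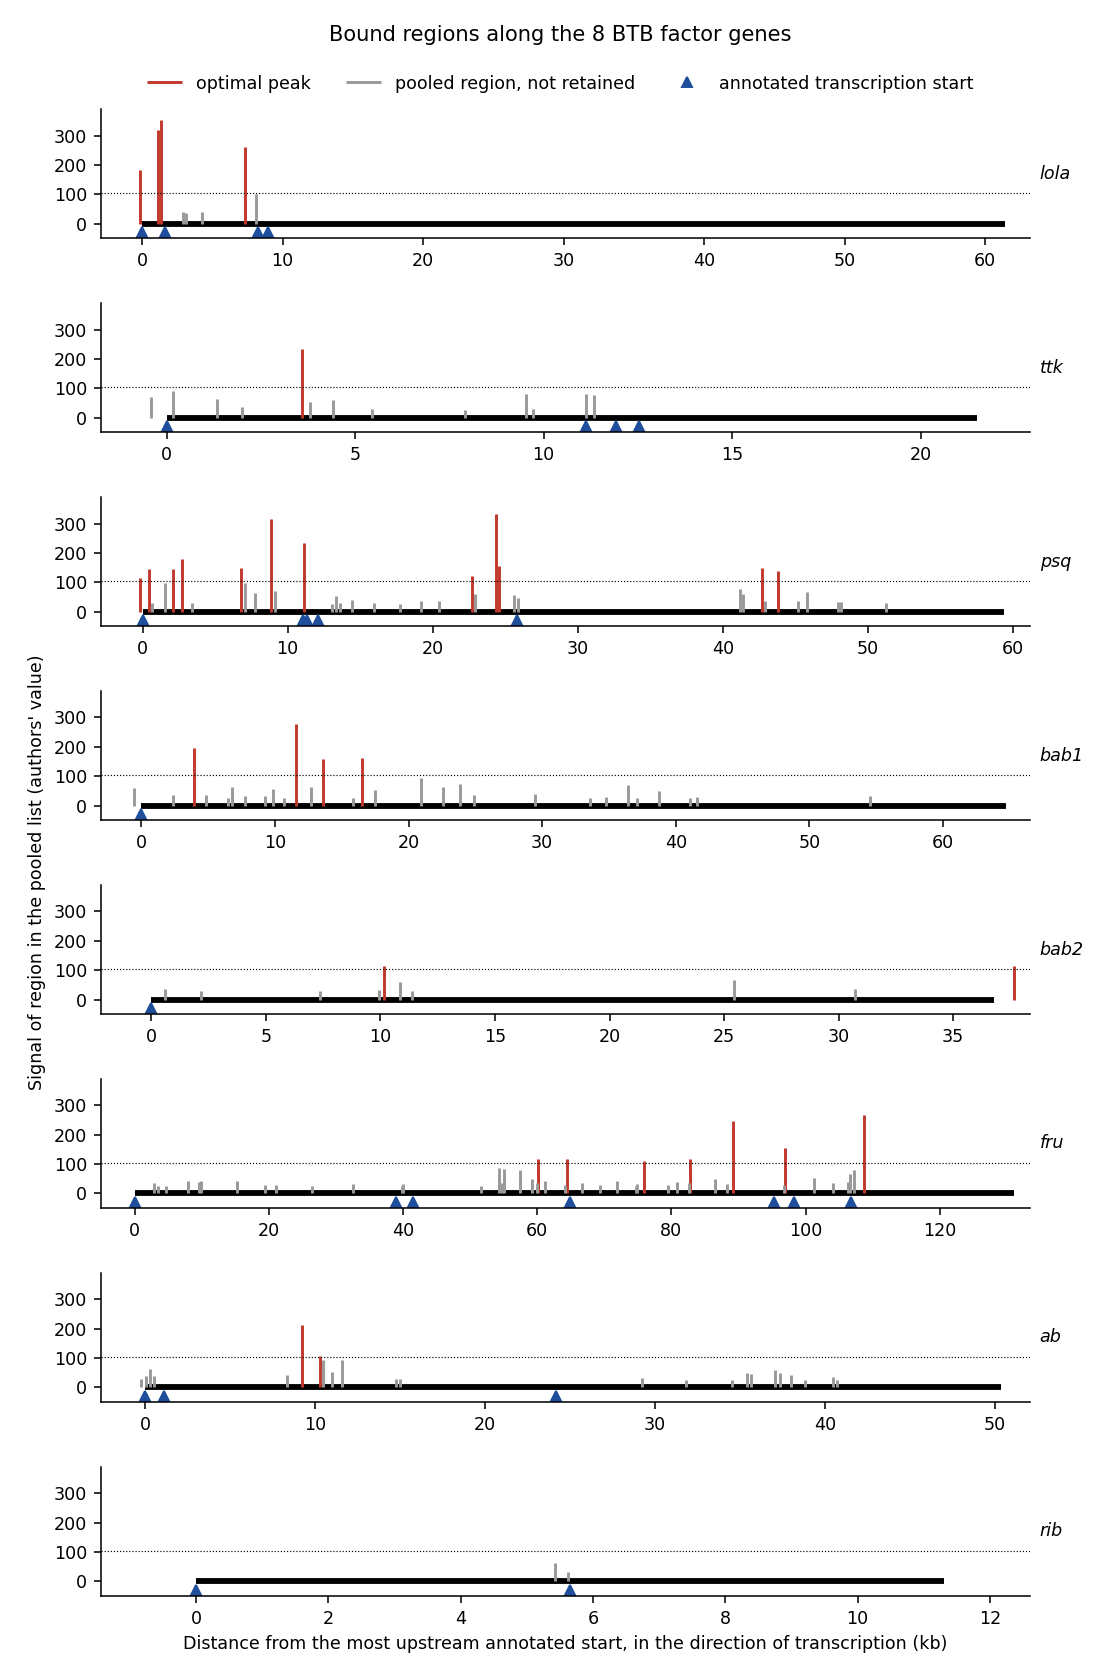
Positions of regions along the 8 genes. Each panel is a gene, the x axis is the distance from its most upstream start in kb, in the direction of transcription, and the height of a line is the signal of a pooled region. Red lines are optimal peaks, grey lines regions not retained, triangles annotated starts, the black bar is the gene, and the dotted line is the lowest signal of the optimal list, 104. The optimal peaks of lola lie within 7.293 kb of its 5′ end, and those of fru between 60.112 and 108.765 kb from it.

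Most of the retained binding was intronic. Of the 32 optimal summits, 6 (18.8%) lay within 500 bp of an annotated start of their own gene, where 2010 of all 5246 optimal summits (38.3%) lay within 500 bp of some start. A further 25 (78.1%) were in introns, 1 was downstream of bab2, and none was in an exon outside a promoter. The intronic share was not taken over all optimal peaks, nor set against the length of these genes that is intron. It thus describes these 32 summits only. The intronic summits were a median of 4.29 kb from the nearest start of their gene, with 6 of them under 2 kb, 11 between 2 and 10 kb and 8 beyond 10 kb. Signals in the 8 genes were moderate. They ranged from 107 to 354 with a median of 156, against a median of 169 and a range of 104 to 3148 over all optimal peaks. The promoter summits had a median signal of 208 and the intronic ones of 154. All 6 promoter summits were in lola and psq, 3 in each, so these medians compare genes as well as places. Within psq the promoter signals were 116, 145 and 234, and the intronic ones ran from 120 to 331. A signal is the authors' own value for a region, and it serves here to order and describe the regions of 1 list. The ranks of the 32 in the pooled list ran from 746 to 5066, and 14 were in the upper 50% of the optimal list.

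The 8 genes have 27 annotated starts, of which 5 (18.5%) had an optimal summit within 500 bp, where 14.0% of the 19630 starts of all protein-coding genes had one. All 5 were in lola and psq, 2 of lola's 4 and 3 of psq's 5. The remaining members had no optimal summit at any start. A pooled region lay within 500 bp of 12 of the 27 starts. Among the highest regions of replicates 1, 2 and 3, the starts with a summit numbered 8, 7 and 2, so this count depended on the replicate. The share over all protein-coding starts was not taken for each replicate. Whether the low count in replicate 3 is particular to these genes is therefore not known.

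lola encodes a large set of isoforms that guide axons and keep neurons in their differentiated state. The gene (FBgn0283521, chr2R:10481894-10543291, minus strand, 61.4 kb) has 24 transcripts from 4 starts. Its highest peak (chr2R:10541872-10542034) had a signal of 354 and ranked 746 in the pooled list, and 346, 1263 and 790 in replicates 1, 2 and 3. Its summit was 280 bp upstream of the second start, used by 8 isoforms, and also lay inside the antisense RNA gene asRNA:CR45135, near that gene's start. The next peak (chr2R:10542079-10542265), with signal 320, was 484 bp upstream of the same start and ranked 700, 1242 and 790 in the 3 replicates. Replicate 3 had 1 region for both peaks, so the pair are not separate sites there. The third (chr2R:10535790-10536205), with signal 261, lay in the 8.94 kb first intron of lola-RR, 966 bp upstream of the start of 11 isoforms, and ranked 1179, 1968 and 1117. The fourth had signal 182 and lay 128 bp upstream of the most 5′ start, with ranks of 3516, 3235 and 1651. All 4 peaks overlapped one of the 5246 highest regions in every replicate, and the 7.293 kb that hold them make up a small share of the gene. The start of the 11 isoforms itself had a pooled region 135 bp upstream with signal 103 and rank 5359, just below the lowest signal retained. That region ranked 5256, 20590 and 4052 in the replicates, so replicate 2 stood apart from the other two. The other 3 regions not retained in lola had signals of 41.6 or less.

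ttk encodes a repressor that blocks neural and photoreceptor fates. The gene (FBgn0003870, chr3R:31713867-31735392, plus strand, 21.5 kb) has 8 transcripts from 4 starts. Its single optimal peak (chr3R:31717249-31717664, signal 233), whose sequence is printed above, lay 3590 bp downstream of the first start in the 12.9 kb first intron of ttk-RE and ttk-RF. It ranked 1614 in the pooled list, and 2134, 1503 and 1442 in replicates 1, 2 and 3, so all of them held it high. The starts themselves had lower regions. The strongest near the first start had signal 91.3 and ranked 8233, 5036 and 9869, and one 2 bp upstream of the second start had signal 81.0 and ranked 3661, 7635 and 6852. Another, 420 bp upstream of the first start with signal 70.0, ranked 2875, 18622 and 25839. These ranks lie on both sides of the 5246 regions counted per replicate, and the number of summits in ttk among the highest regions was 4, 3 and 1 in replicates 1, 2 and 3.

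fru encodes isoforms that specify male courtship behaviour, and its distal promoter gives transcripts spliced differently in the sexes. The gene (FBgn0004652, chr3R:18414273-18545586, minus strand, 131 kb) is the longest member, with 15 transcripts from 7 starts. The 7 optimal peaks were all in the 79.3 kb second intron of fru-RE, between 60.112 and 108.765 kb from the 5′ end. The highest (chr3R:18436613-18437028, signal 268) lay 1950 bp downstream of the fru-RM start and ranked 1819, 1126 and 1327 in the 3 replicates. The next (chr3R:18456282-18456466, signal 247) was 6170 bp upstream of the fru-RD start and ranked 3037, 984 and 1571. These 2 were the only fru peaks among the 5246 highest regions of every replicate. The third (chr3R:18448382-18448797, signal 153) lay 1261 bp upstream of the start of fru-RA and fru-RL, and ranked 6879, 3737 and 2579. The other 4 had signals of 109 to 118, close to the lowest value in the optimal list. One of them, with signal 109, ranked 19547, 9253 and 2578, the widest spread among the members in absolute rank. At the most 5′ start, used by 8 of the 15 isoforms, no pooled summit lay within 500 bp, and the nearest was 1566 bp away with signal 32.7. Males and females were pooled, so any difference between the sexes at fru cannot be seen here.

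ab encodes a factor that sets dendrite shape and wing vein length. The gene (FBgn0264442, chr2L:11210678-11261080, plus strand, 50.4 kb) has 5 transcripts from 3 starts. Both optimal peaks were in the 13.7 kb second intron of ab-RB. The higher (chr2L:11219712-11220127, signal 211) ranked 5048, 1713 and 1091 in replicates 1, 2 and 3. The lower (chr2L:11220732-11221147, signal 107) ranked 5184, 3633 and 8086, and had the lowest signal of the 32. The worst rank was 4.63 times the best at the higher peak and 2.23 times the best at the lower. Near the first start the strongest pooled region had signal 61.5, 264 bp downstream, and was not retained.

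psq encodes a factor of oogenesis and eye development that binds GAGA-rich DNA and recruits repressive complexes. The gene (FBgn0263102, chr2R:10557888-10617280, plus strand, 59.4 kb), which neighbours lola, has 15 transcripts from 5 starts. Its highest peak (chr2R:10582034-10582449, signal 331) lay in the 48.4 kb intron 3 of psq-RC, 1444 bp upstream of the start of 5 isoforms. It ranked 793, 879 and 999 in replicates 1, 2 and 3, the closest agreement among the 3 highest peaks of the gene. The next (chr2R:10566559-10566974, signal 316) was in the same intron, 2175 bp upstream of the psq-RE start, and ranked 1398, 1107 and 827. The third (chr2R:10568802-10569217, signal 234) sat 68 bp downstream of the psq-RE start and 212 bp upstream of the start of psq-RF and psq-RG. It ranked 739, 1347 and 5935, so replicate 3 held it far lower than the other two. The other 9 had signals of 116 to 180. A pair flanked the most 5′ start, used by 6 isoforms, at 179 bp upstream (signal 116, ranks 3232, 5697 and 6351) and 439 bp downstream (signal 145, ranks 5085, 1668 and 7406). Another pair lay in the 3.31 kb first intron with signals of 145 and 180, and their ranks of 2942, 2919 and 3049, and of 2491, 2141 and 1964, were close between replicates. A peak of signal 154 overlapped the highest one and was the only overlapping pair in the 8 genes. It ranked 10780, 7876 and 3592. The start of the 5 isoforms had no optimal summit within 500 bp. Of the 12, 5 were among the 5246 highest regions of every replicate.

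bab1 and bab2 are neighbouring genes that pattern leg segments, the ovary and abdominal pigmentation. bab1 (FBgn0004870, chr3L:1036369-1101089, minus strand, 64.7 kb) has 4 transcripts from 1 start, and its 4 optimal peaks were all in the 58.7 kb first intron. The highest (chr3L:1089288-1089703, signal 276), printed above, lay 11593 bp from the start and ranked 1913, 1198 and 1128 in replicates 1, 2 and 3. The next (chr3L:1096929-1097344, signal 197), 3952 bp from the start, ranked 2080, 2100 and 2368. The third (chr3L:1084394-1084809, signal 163), 16487 bp from the start, ranked 2480, 2887 and 3317. The fourth had signal 158 and ranked 2636, 2221 and 5511, so 3 of the 4 were among the 5246 highest regions of all replicates. Each of the 3 highest of bab1 stayed within the upper 3317 ranks in all replicates. bab2 (FBgn0025525, chr3L:1140429-1177276, minus strand, 36.8 kb) has 2 transcripts from 1 start and held 2 optimal peaks of low signal. One (chr3L:1139397-1139812, signal 115) was just beyond the 3′ end and ranked 2967, 3305 and 10326. The other (chr3L:1166926-1167341, signal 113) was in the 28.8 kb second intron and ranked 2330, 8387 and 5574. Neither was among the 5246 highest regions of all 3 replicates. No pooled summit lay within 500 bp of either gene's start, the nearest being 588 bp away in bab1 and 615 bp away in bab2.

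rib encodes a factor of tracheal and salivary gland tube growth. The gene (FBgn0003254, chr2R:19270078-19281396, plus strand, 11.3 kb) is the shortest member, with 3 transcripts from 2 starts. It held no optimal peak and 2 pooled regions, with signals of 62.4 and 32.8. The stronger was 230 bp upstream of the start of rib-RA and rib-RC and ranked 8890, 6944 and 18532 in the replicates. No replicate placed a rib summit among its 5246 highest regions.

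**Figure D2:**
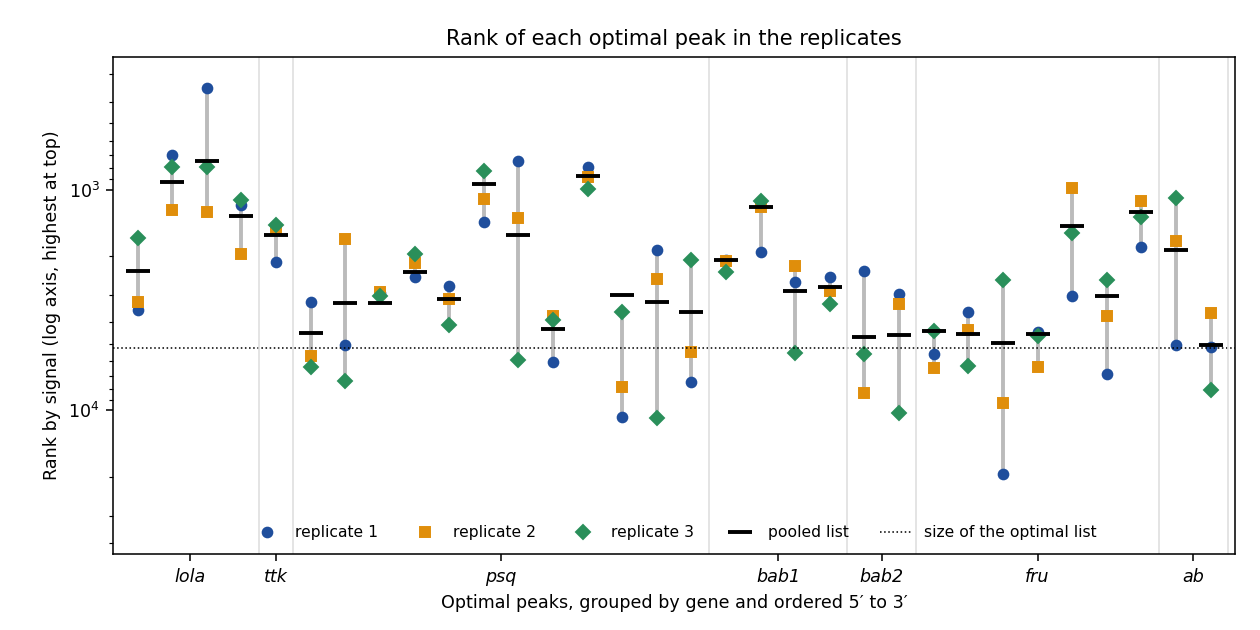
Rank of the 32 optimal peaks in each replicate. The y axis is the rank by signal on a log axis with the highest at the top, symbols are replicates 1, 2 and 3, the short bar is the rank in the pooled list, the grey line joins the replicates, and the dotted line is 5246, the size of the optimal list. All 4 lola peaks lie above the dotted line in every replicate, and a fru peak has the lowest rank shown, 19547 in replicate 1.

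Agreement between replicates was examined by taking, for each optimal peak, the overlapping region of nearest summit in each replicate. All 32 had such a region in every replicate. They were among the 5246 highest of all 3 replicates in 16 cases, of 2 replicates in 10 and of 1 in 6, against 3279 of all 5246 optimal peaks (62.5%) in all 3. The median rank of the 32 was 2841.0, 2716.5 and 2814.0 in replicates 1, 2 and 3, so no replicate placed them higher as a group by more than a small step. Replicate summits lay a median of 17.5 bp from the pooled summit in the 8 genes, and lay within 50 bp of it in 71 of 96 cases (74.0%) against 83.8% over all optimal peaks. Another optimal summit lay within 2 kb of 17 of the 32 (53.1%), against 39.7% of all optimal peaks. Most of these 17 were in psq, and none was in fru. Of the 32, those whose overlapping region was among the 5246 highest of both other replicates numbered 18 without replicate 1, 17 without replicate 2 and 23 without replicate 3. These 3 counts were not set against the whole list, so they do not show whether a replicate stood apart in these genes alone. The shares and counts given here were not tested, because regions of a gene are not replicates.

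The number of summits per gene was also counted among the 5246 highest regions of each replicate. psq had 10, 11 and 10 in replicates 1, 2 and 3 (10.3 ± 0.577, SD, n = 3), lola had 4 in each, and ab had 2 in each. fru had 6, 4 and 6, and bab1 had 4, 4 and 5. bab2 had 2, 1 and 0, so its place depended on the replicate, as did that of ttk. The order of psq above fru, and of fru above bab2 and ab, held in every replicate, whereas fru and lola met at 4 in replicate 2, and lola and bab1 did not differ beyond the spread between replicates.

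**Figure D3:**
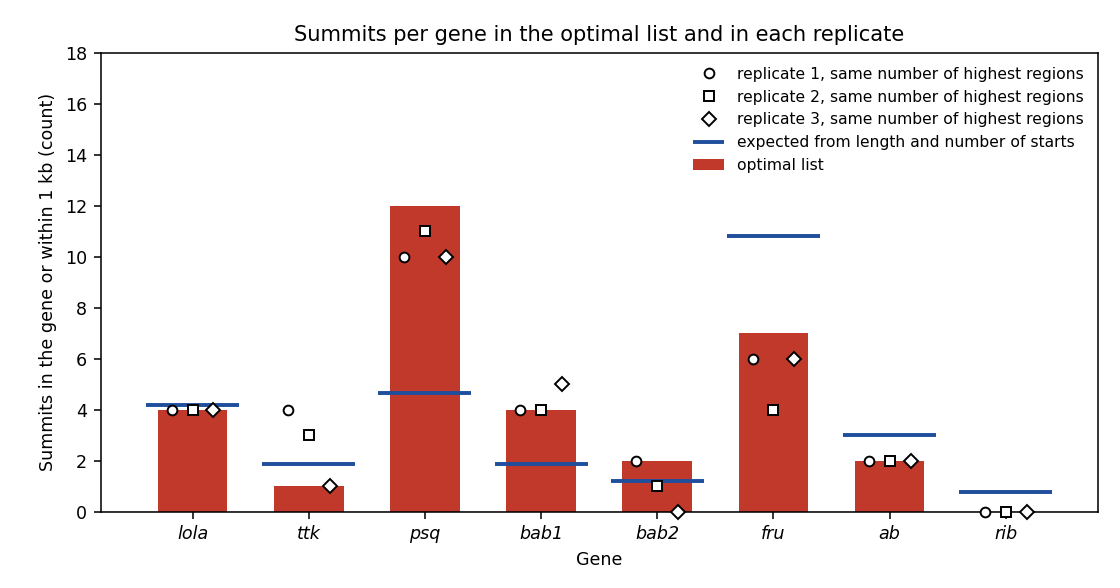
Summits per gene. Bars are counts in the optimal list, open symbols are counts among the 5246 highest regions of replicates 1, 2 and 3, and blue lines are the counts expected from gene length and number of starts. psq stands at 12 against 4.65 expected, and fru at 7 against 10.8.

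Long genes hold more summits, so each count was read against a negative binomial regression over all 13968 protein-coding genes on length and number of starts. The regression expected 4.65 optimal summits in psq, which held 12, 2.58 times as many. bab1 held 2.14 times and bab2 1.67 times the expected number. The other members were below it, at 0.959 in lola, 0.668 in ab, 0.648 in fru and 0.541 in ttk, and rib held none where 0.758 was expected. None of the 8 passed an adjusted p of 0.05 (Benjamini-Hochberg over all genes) and none had an unadjusted p under 0.05. The lowest unadjusted p was that of psq, 0.178. The share called among all genes was 0.0%, with 169 genes higher at an unadjusted p under 0.05 and no adjusted p under 1.0, so a count that did not pass says nothing about its likeness to other genes. Only 0.122% of protein-coding genes held 12 or more optimal summits, and among the 226 genes of 50 to 100 kb the median was 2.0 and 7 genes held 12 or more.

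**Figure D4:**
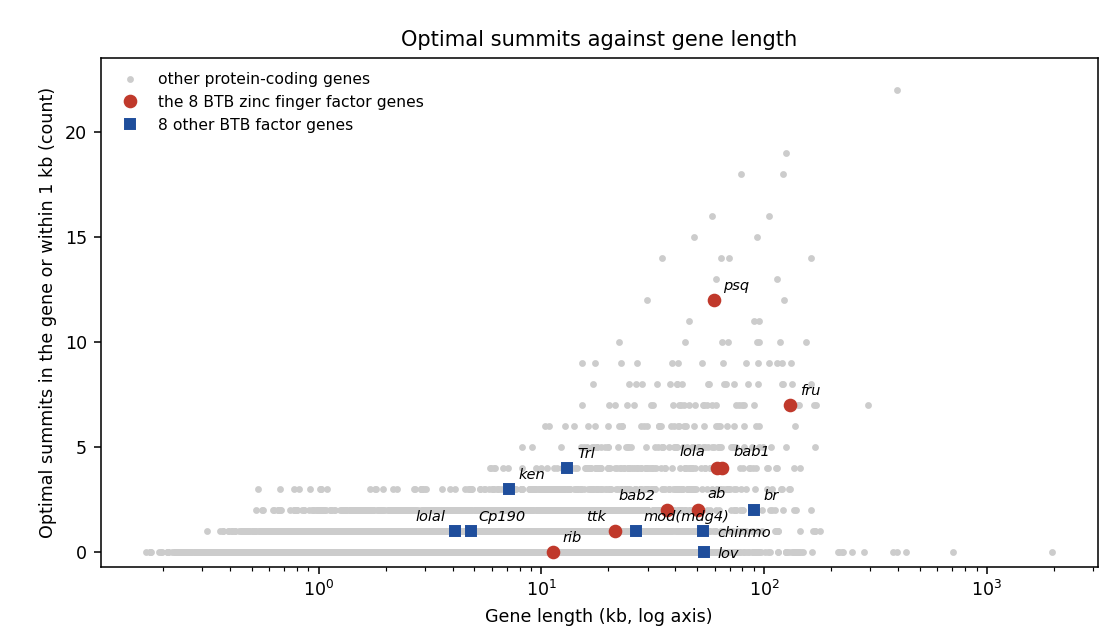
Optimal summits against gene length. Each point is a protein-coding gene, with length in kb on a log x axis and the count of optimal summits on the y axis, circles mark the 8 genes and squares the 8 other BTB factor genes. psq has 12 summits at 59.4 kb, near the upper edge for its length, and rib has none at 11.3 kb.

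Per length, the 8 genes held 7.07 optimal summits per 100 kb of gene and flanks, against 4.4 in the other protein-coding genes. Unlike the regression, this measure takes no account of the number of starts. In the regression only 3 of the 8 held more summits than expected. The density was 19.5 in psq, 6.31 in lola, 6.0 in bab1, 5.25 in fru and 5.15 in bab2. It was 4.25 in ttk, 3.82 in ab and 0.0 in rib, so psq stood far above the rest and 3 members lay below the other genes. Among the highest regions of replicates 1, 2 and 3 the densities were 7.07, 6.4 and 6.18 in the 8 genes, against 4.44, 4.42 and 4.43 in the other genes. The means were 6.55 ± 0.464 in the 8 genes and 4.43 ± 0.01 in the others (SD, n = 3 each), and the difference of 2.12 ± 0.452 was positive in all 3 replicates. Without psq the other 7 genes held 5.62, 4.6 and 4.6 per 100 kb in replicates 1, 2 and 3, and the difference from the other genes was 0.51 ± 0.581 (SD, n = 3), smaller than the spread between replicates. For all 8 genes the exact sign-flip permutation test, two-sided, gave p = 0.25, the smallest value that 3 replicates can give, so the design cannot reach 0.05. The replicates measure the same genes each time. The SDs and this test thus cover how repeatable the lists are, and not the spread between genes. Whether the 8 genes differ from other genes beyond that spread was not tested.

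Other genes for BTB factors gave a mixed picture. Of 8 such genes (br, chinmo, ken, Trl, mod(mdg4), lov, lolal and Cp190), 7 held an optimal summit and together they held 13. Their lengths run from 4.1 to 89.7 kb. The share of protein-coding genes with an optimal summit was 19.1% under 10 kb, 49.3% at 10 to 20 kb, 60.3% at 20 to 50 kb and 65.9% at 50 to 100 kb. Against the regression, br, chinmo and lov were below the number expected and the others of this list above it. br, the early ecdysone-response gene Broad, is 89.7 kb long and held 2 optimal summits of 37 pooled regions, 0.216 times the number expected. Trl, which encodes GAGA factor, held 4 in 13.1 kb, and ken held 3 in 7.17 kb, 8.2 times the number expected at an unadjusted p of 0.0348 and an adjusted p of 1.0 in the same regression. CG7368 itself held 5 optimal summits in 8.17 kb, with 5, 4 and 4 among the highest regions of replicates 1, 2 and 3. That was 8.23 times the number expected in the regression, in which no gene passed. It is the tagged gene of a transgenic line and the control was not analysed, so what these summits reflect was not tested. The counts of psq in the optimal, pooled and replicate lists were most like those of cv-c, with 11 optimal and 43 pooled summits in 90.0 kb, at a Euclidean distance of 0.272 over log2(1 + summits) in the 5 lists. CG32816 and spri followed at distances of 0.313 and 0.349.

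Each of 6 words was searched on both strands within 50 bp of each summit. The word TATAAA was in 7 of the 32 summits of the 8 genes (21.9%), against 19.9% of all optimal summits, and a run of 7 A, AAAAAAA, was in 5 (15.6%), against 14.2%. GAGAG, a core of the sequence known to be bound by Pipsqueak and GAGA factor, was in 4 (12.5%), against 12.4%, of which 3 were in psq and 1 in fru. AGGAC was in 4 (12.5%), 1 each in lola, ttk, bab1 and bab2, against 5.18%. TAATTA was in 2 (6.25%), against 8.39%, and TATCGATA in none, against 0.762%. Apart from AGGAC, whose excess is a matter of 4 summits, the words were about as frequent in the 8 genes as in the whole list. The A+T share within 25 bp of the summit averaged 66.0% ± 11.2 (SD over 32 summits) in the 8 genes, against 65.2% ± 11.5 over all optimal summits. It averaged 79.4% in ab (2 summits), 72.5% in fru (7), and 70.6% in bab1 (4) and in bab2 (2). The average was 60.3% in psq (12) and 59.3% in lola (4), and the single summit of ttk had 60.8%. The medians were 62.7% in psq and 58.8% in lola, and an intronic summit of psq had the lowest share of the 32, 25.5%.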

How the data were processed

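ChIP-seq of 3 biological replicates was analysed from peak lists in dm6 coordinates. Per the accompanying descriptions, the authors made each replicate list from its own alignments and a control, the pooled list from all alignments, and the optimal list by IDR. The signal was deposited by the authors as a column of each list. Its formula, the caller, the aligner and the read numbers were not given in the sources used here. Depth is thus unknown, and no interval for counting error can be given. Lists in dm3 coordinates were not used.

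Positions are 1-based. Genes and starts came from Ensembl 115, and all 8 members had the same ends in RefSeq. Promoter means within 500 bp of a start. Replicates were compared by rank, taking the 5246 highest regions of each. Counts per gene were fitted by negative binomial regression (statsmodels 0.14.6, Python 3.11.15) on log2 span with 1 kb flanks and log2 number of starts, with Benjamini-Hochberg adjustment over 13968 genes and a threshold of 0.05. The regression was tested on simulated data. Densities were compared by an exact sign-flip permutation test (SciPy 1.17.1). Alternatives changed the flank, the promoter distance, the list, the regression and the replicates used.

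The members, the other BTB genes, the words and the rules were chosen with earlier results of these data known. The text names all 8 members, the other BTB genes, CG7368, annotated genes whose start lies by a member's summit, and the 3 genes most like psq by count. It gives in full the 3 highest peaks of each member. Further peaks of lola, psq, bab1 and fru and regions not retained were named after their values were seen. Sequences are shown for members outside arm 2R.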

Additional observations from a re-analysis of the deposited data

How the results depend on the processing

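The 32 optimal summits became 14 in the upper 50% of the list by signal, and 15 to 21 when each replicate was left out in turn and the pooled summit itself had to lie inside one of the highest regions of both others. That criterion is stricter than the overlap behind the replicate ranks, which gave 17 to 23. The 5 starts with a summit became 8 with the highest regions of replicate 1, 2 with those of replicate 3, 8 with a promoter distance of 1000 bp, and 2 to 5 when each replicate was left out in turn. The 19.2% of pooled regions retained became 8.38% in the upper 50% by signal, 23.5% with overlapping peaks merged, 23.4% in replicate 1, and 8.98% to 13.2% when each replicate was left out in turn and all pooled regions, retained or not, were held to the same criterion on the summit. Requiring both other replicates, or a higher signal, keeps fewer peaks by construction. For the other moves the cause was not tested. No member passed the regression under any alternative, but neither did any other gene, so this says nothing about the members. psq had its lowest unadjusted p in the regression, 0.0342, among the 7036 genes with a pooled summit. The density difference of 2.12 ranged from 1.87 to 2.3 without 1 replicate and was 0.51 without psq, alternatives added after seeing the data. Of 49 alternative values, 15 moved beyond the limits set for them. For the density difference the limit was a change of sign, so the fall to 0.51 without psq counted as not moved. The number of members passing the regression could hardly move either, as no gene of the whole set passed. The tally is thus no measure of stability.

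No paired analysis was possible because the series has 1 group, so replicate numbers pair no samples across groups. The sign-flip test compares sets of genes within each replicate. The 3 replicates, whole animals of pooled sex, an unknown number of reads and a control experiment not analysed here limit what these lists can show. Counts in single genes are small, so a change of 1 or 2 summits alters the order of ttk, bab2 and ab.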
